A study of Mus musculus with 14 samples.

Results

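The matrix proteases described here are the matrix metalloproteases (Mmp genes), the ADAMTS proteases (Adamts genes with a number) and their inhibitors, Timp1 to Timp4, chosen by gene symbol alone. The symbols gave 46 genes, 23 Mmp, 19 Adamts and 4 Timp, of 55427 genes in the table of TPM values (transcript abundance normalized for gene length and library total). They were measured by bulk RNA-seq in 14 cultured clones, each grown from a tdTomato+ cell of femoral bone marrow. All mice carried Fgfr3-creER, a tamoxifen-inducible Cre transgene that drives recombination in Fgfr3-expressing cells, and 1 R26R-tdTomato reporter allele, and all received tamoxifen at postnatal day 21. The Fgfr3-WT group held 5 clones from P23 at passage 8. The other clones carried Trp53 fl/fl in addition (Fgfr3-p53 cKO), 5 from P28 at passage 8 and 4 from 4-month-old mice (P4M) at passage 6 to 8. The labels do not say how many mice gave the clones, so p-values measure the spread between clones. Genotype, age and library series cannot be told apart in the comparisons with Fgfr3-WT, because the library names of all Fgfr3-WT clones carry 1 series number and those of all cKO clones another.

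Matrix metalloproteases and ADAMTS proteases are zinc-dependent enzymes that cut collagens, proteoglycans and other components of the extracellular matrix, and most are made as inactive precursors. TIMP proteins block their active sites, and TIMP2 also takes part at the cell surface, in a complex with MMP14, in activating the precursor of MMP2. In bone and cartilage, collagenases and gelatinases clear collagen during growth and remodeling, aggrecanases of the ADAMTS family cut the cartilage proteoglycan aggrecan, and ADAMTS2 and its relatives remove the amino-terminal propeptide of fibrillar procollagens.

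Trp53 was present at 49.9 to 68.1 CPM (read counts divided by a library total that was scaled by TMM) in the Fgfr3-WT clones and at 1.72 to 2.84 CPM in the cKO clones, so every clone matched its labelled genotype. Total counts lay between 25688946 and 38958693 in Fgfr3-WT, 37606033 and 48648618 in P28 and 43757832 and 52857424 in P4M. The 4 neutrophil markers summed to at most 1.08 TPM. The 4 hematopoietic markers summed to 0.31 to 6.70 TPM, with Coro1a up to 5.33 TPM and Ptprc at most 0.07 TPM. The 4 endothelial markers summed to at most 0.25 TPM in Fgfr3-WT and 0.15 to 3.26 TPM in the cKO clones, with Cdh5 listed at 0 in every clone and Kdr, up to 3.12 TPM, called higher with all cKO clones (log2 difference 4.59, adjusted p = 0.00371). The 5 osteoclast markers summed to 144 to 382 TPM in Fgfr3-WT, 46.6 to 147 TPM in P28 and 22.6 to 232 TPM in P4M. Nearly all of that sum was Ctsk, called lower with all cKO clones (-1.93, adjusted p = 0.00578). Acp5, at most 0.1 TPM in Fgfr3-WT and up to 16.3 TPM in P28 clone 1, was called higher (5.36, adjusted p = 0.00598), while Dcstamp was listed at 0 throughout. The 4 macrophage markers summed to 22.4 to 165 TPM in Fgfr3-WT and 5.01 to 34.5 TPM in the cKO clones, nearly all from Cd68 and Lyz2, both called lower with all cKO clones (-3.14 and -2.96), with Adgre1 at most 0.1 TPM. The part of these markers in the members' values was not tested. The 5 skeletal stromal markers summed to 1511 to 7093 TPM in Fgfr3-WT and 6222 to 11419 TPM in the cKO clones. Col1a2, one of them, was under 0.25 TPM in Fgfr3-WT clones 1 to 4. The 5 osteoblast markers summed to 15.3 to 198 TPM in Fgfr3-WT, to 51.0 to 81.6 TPM in P28 clones 1 to 3, to 1995 and 2850 TPM in P28 clones 5 and 4, and to 1976 to 4320 TPM in P4M. P28 clones 4 and 5 therefore stood apart from the other P28 clones. The 5 chondrocyte markers summed to 219 to 5782 TPM in Fgfr3-WT, 61.1 to 468 TPM in P28 and 8.08 to 16.9 TPM in P4M.

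RefSeq promoter windows (GRCm38.p6, 250 bases before to 50 after the start) were found for 32 of the 46 genes, in 35 entries, with no entry for Mmp2, Mmp9, Mmp16, Mmp17, Mmp19, Adamts4, Adamts5, Adamts6, Adamts7, Adamts8, Adamts10, Adamts15, Adamts16 and Adamts19. Of the 46 genes, 10 Mmp genes lie in a row on chromosome 9, over 427 kb from Mmp13 to Mmp7 (chr9:7272514-7699585). The letters TGAGTCA, to which AP-1 factors are known to bind, were searched on both strands. They occurred in 7 of the 35 windows (20%), against 5.20% of all 32851 windows in the table. Those 7 windows belong to 7 of the 10 genes of the chromosome 9 row (Mmp1a, Mmp1b, Mmp3, Mmp7, Mmp10, Mmp12 and Mmp13), and none of the 23 windows of members elsewhere held the letters. The letters GGGCGG (GC box) showed the opposite arrangement, in 18 of the 23 windows elsewhere, in none of the 12 of the row and in 35.7% of all windows. The letters TGTGGTT (RUNX) occurred in 3 of the 35 windows (8.57%), those of Mmp7, Mmp13 and Mmp27, against 5.27% of all. The 12 windows of the row had 37.7 to 52.0% G and C, and the 23 others 53.3 to 80.0%. The 250 bases before the start are shown for Mmp3 (chr9:7445572-7445821, plus strand) and Mmp13 (chr9:7272264-7272513, plus strand), the row's 2 genes with testable counts, and for Mmp14 (chr14:54431348-54431597, plus strand) and Adamts2 (chr11:50601835-50602084, plus strand), members that rose in the cKO clones. Capitals mark the AP-1 letters in Mmp3 and Mmp13, the RUNX letters at 119 bases before the start of Mmp13, and the GC boxes in Mmp14 and Adamts2. The first AP-1 letter lies 46 bases before the start in Mmp3 and 35 before it in Mmp13. The 2 GC boxes of Mmp14 adjoin without overlapping. A match describes letters and shows no binding.
Mmp3: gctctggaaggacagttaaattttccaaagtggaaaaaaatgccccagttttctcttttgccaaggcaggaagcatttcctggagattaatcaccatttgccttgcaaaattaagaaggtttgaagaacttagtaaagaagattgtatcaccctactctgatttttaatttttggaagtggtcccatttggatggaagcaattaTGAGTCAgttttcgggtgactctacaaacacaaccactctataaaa
Mmp13: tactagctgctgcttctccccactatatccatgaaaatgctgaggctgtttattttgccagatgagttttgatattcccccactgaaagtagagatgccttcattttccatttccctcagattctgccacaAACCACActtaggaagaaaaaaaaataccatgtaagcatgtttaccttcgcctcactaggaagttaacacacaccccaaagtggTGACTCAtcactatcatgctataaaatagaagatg
Mmp14: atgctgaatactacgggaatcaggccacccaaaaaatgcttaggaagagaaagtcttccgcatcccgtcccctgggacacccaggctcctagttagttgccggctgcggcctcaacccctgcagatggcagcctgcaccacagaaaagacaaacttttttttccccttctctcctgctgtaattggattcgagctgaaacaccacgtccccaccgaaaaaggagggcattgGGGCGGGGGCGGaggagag
Adamts2: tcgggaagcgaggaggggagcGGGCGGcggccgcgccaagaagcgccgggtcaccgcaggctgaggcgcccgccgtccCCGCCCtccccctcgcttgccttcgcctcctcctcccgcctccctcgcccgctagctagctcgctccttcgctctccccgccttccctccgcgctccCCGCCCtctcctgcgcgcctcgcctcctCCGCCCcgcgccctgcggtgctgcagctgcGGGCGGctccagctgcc

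On the TPM scale, which allows levels of different genes to be compared, Timp2, Timp3 and Timp1 had the highest means over all 14 clones. These means were 1495, 790 and 421, followed by 327 for Mmp14, 235 for Mmp2 and 38.1 for Mmp13. In P28 the order differed, with means of 1086 for Timp2, 508 for Mmp14, 434 for Timp3, 307 for Mmp2 and 281 for Timp1. Timp4 was at most 0.37 TPM in any clone. The highest mean TPM of an Adamts gene was 30.6, for Adamts10. Between 12 and 21 members reached 1 TPM in a Fgfr3-WT clone and between 20 and 25 in a cKO clone. Mmp7 (matrilysin) had no count in any clone and is the member missing from the count table. The summed TPM of the Mmp genes was 129 to 654 in Fgfr3-WT, 675 to 1203 in P28 and 544 to 1021 in P4M, and that of the Adamts genes 29.1 to 49.6, 68.1 to 198 and 101 to 171. The Adamts sums of the genotypes did not overlap, whereas the Mmp sums of Fgfr3-WT and P4M did.

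The low-count filter left 30 members for testing among 17358 genes. The 16 not tested were Mmp1a, Mmp1b, Mmp7, Mmp8, Mmp10, Mmp12, Mmp20, Mmp21, Mmp24, Mmp25, Mmp27, Adamts8, Adamts13, Adamts15, Adamts19 and Adamts20. Genes were called at an FDR of 0.05 with the quasi-likelihood test of edgeR. With all cKO clones against Fgfr3-WT, 13 of the 30 tested members rose and 5 fell, while 23.1% of all genes tested rose and 25.7% fell. In P28 against Fgfr3-WT, 13 rose and 4 fell, with 19.2% and 19.7% over all genes. In P4M against Fgfr3-WT, 13 rose and 4 fell as well, with 22.3% and 23.6% over all genes. In each of these comparisons, 4 of the 13 that rose (Mmp9, Adamts16, Adamts17 and Adamts18) passed the filter through the cKO clones alone and could hardly be called other than higher. Over the 26 that passed through both genotypes the counts were 9 higher and 5 lower with all cKO clones, and 9 higher and 4 lower at each age. Passing through both here means that at least 1 Fgfr3-WT clone reached the filter level. Adamts2, called higher, and Adamts3, not called, reached it in 3 Fgfr3-WT clones, too few to pass without the cKO clones. The counts over the 26 are therefore not free of the filter. The median log2 fold change over the 30 tested members was 1.38, against -0.05 over all genes tested, and over those 26 members it was 0.30. By family, 9 of the 14 tested Adamts genes rose, or 6 of the 11 that passed through both genotypes, and none fell (1 more, Adamts9, was higher at an unadjusted p under 0.05, and DESeq2, which called 25.3% of all genes higher and 26.3% lower, called none lower), 4 Mmp genes rose and 4 of the 12 tested fell, and of the 4 Timp genes only Timp2 was called, as lower. P28 and P4M share the same Fgfr3-WT clones, so their calls are not independent. How many of all genes tested separate fully between the genotypes was not counted. Where such separation is given here, it is a description and not a result about the members. Less RNA per cell and fewer cells that make it cannot be told apart in bulk samples.

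**Figure D1:**
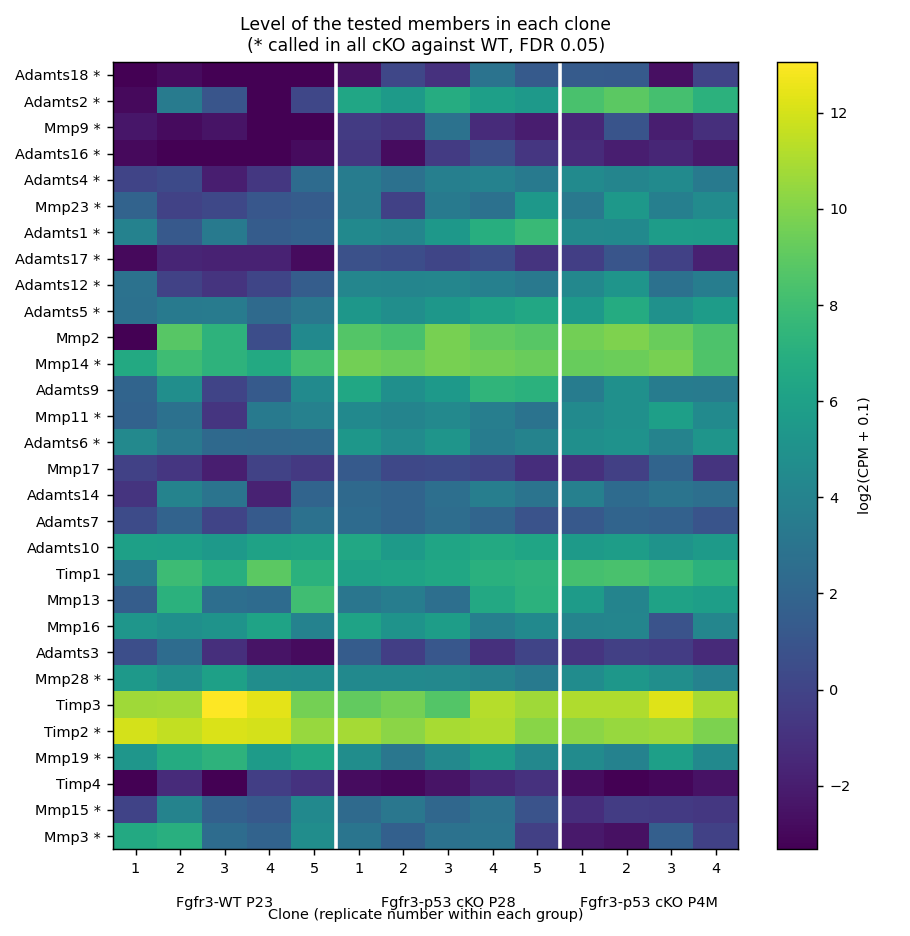
Level of the 30 tested members, as log2(CPM + 0.1), in each of the 14 clones, with members ordered by log2 fold change in all cKO clones against Fgfr3-WT. Called members carry an asterisk, Timp2 and Timp3 are the brightest lines, and Mmp2 is dark in Fgfr3-WT clones 1 and 4.

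**Figure D2:**
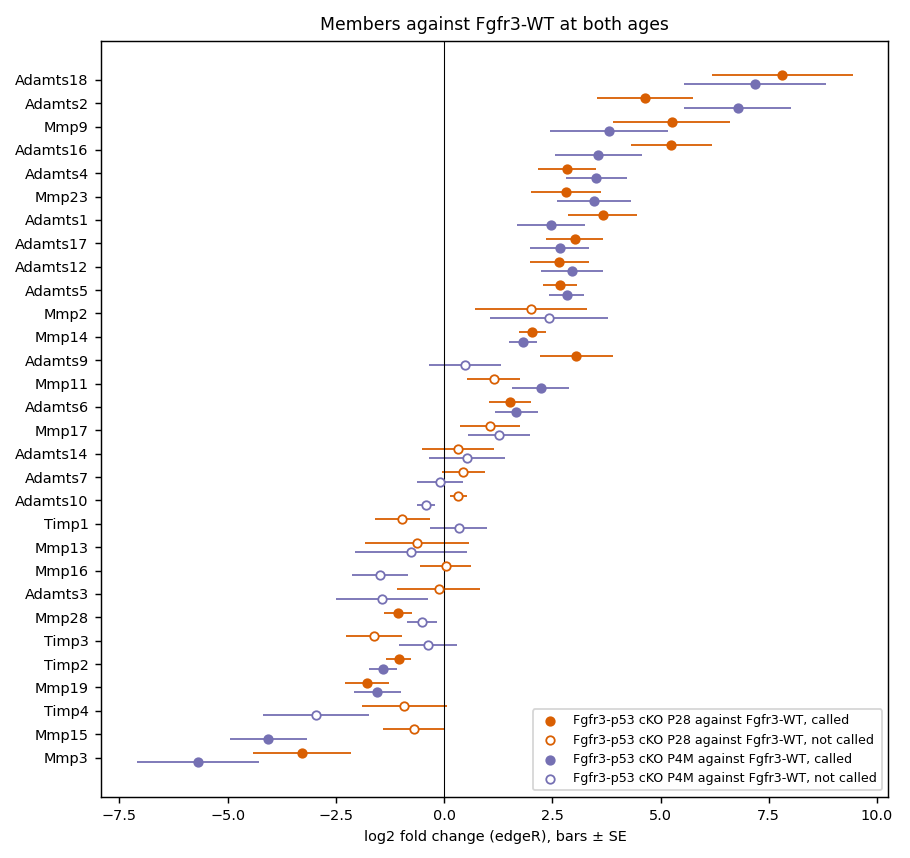
log2 fold change with its SE for the 30 tested members in P28 (orange) and P4M (purple) against Fgfr3-WT, with filled points for calls at an FDR of 0.05. The 2 estimates share their Fgfr3-WT clones, 13 members were called higher and 4 lower at each age, Adamts9 and Mmp28 passed in P28 alone and Mmp11 and Mmp15 in P4M alone, and of these 4 only Mmp15 was called between the ages.

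Mmp14 encodes the membrane-anchored collagenase MT1-MMP and had the highest level of the Mmp genes. It was at 99.5, 251, 153, 100.5 and 275 CPM in Fgfr3-WT clones 1 to 5. In P28 it was at 763, 646, 827, 732 and 647 CPM, and in P4M at 609, 662, 848 and 372 CPM. Every cKO clone lay above every Fgfr3-WT clone. On the log2 scale Mmp14 rose by 2.04 (SE 0.307, adjusted p = 0.000317) in P28, 1.82 (SE 0.316, adjusted p = 0.000582) in P4M and 1.93 (SE 0.285, adjusted p = 0.000153) with all cKO clones, and the call held in every alternative setting. Between the 2 cKO ages it differed by -0.22 (adjusted p = 0.71).

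Mmp2, the gelatinase whose precursor MMP14 cuts, did not pass the test. Its counts were spread over a wide range in Fgfr3-WT, at 0, 452, 152, 1.39 and 21.4 CPM in clones 1 to 5. P28 clones held 415, 311, 815, 526 and 446 CPM and P4M clones 765, 954, 628 and 352 CPM. Clones 1, 3, 4 and 5 of Fgfr3-WT lay below every cKO clone, but clone 2 lay within their range. On the log2 scale the difference was 2.22 (SE 1.22, adjusted p = 0.151) with all cKO clones, and 3.74 (adjusted p = 0.0388) without Fgfr3-WT clone 2, with adjusted p values from 0.0388 to 0.241 over all alternatives. The SD of log2 CPM among Fgfr3-WT clones was 5.32 for Mmp2, higher than in 99.9% of genes tested. Mmp14 and Mmp2 together made up 27.5 to 57.6% of the summed Mmp TPM in Fgfr3-WT and 77.6 to 90.8% in the cKO clones. Mmp9, the other gelatinase, was close to 0 in Fgfr3-WT, with 6 counts over all 5 clones. It was at 0.623, 0.454, 7.17, 0.302 and 0.154 CPM in P28 and 0.254, 1.80, 0.158 and 0.357 CPM in P4M. Mmp9 passed the filter through the cKO clones alone and could hardly be called other than higher. With all cKO clones it was called higher (log2 fold change 4.53, SE 1.28, adjusted p = 0.0105). The ratio of summed counts per scaled library was 30.9 (exact 95% interval of counting error 14.1 to 84.7). P28 clone 3 held 361 of the 547 counts in the cKO clones, and without it the ratio was 12.0 (5.39 to 33.0) and the log2 fold change 3.43 (adjusted p = 0.00697). Without P4M clone 2 the log2 fold change was 3.88 (adjusted p = 0.0189). DESeq2 gave it no adjusted p, and in P4M the call was lost without P4M clone 2 (adjusted p = 0.154) and without any of Fgfr3-WT clones 2, 4 and 5.

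Timp2, the most abundant inhibitor in Fgfr3-WT on the TPM scale, was at 4129, 3071, 4454, 4044 and 1476 CPM in clones 1 to 5. P28 clones held 1865, 1195, 1915, 2172 and 1150 CPM and P4M clones 1180, 1511, 1609 and 897 CPM. Clones 1 to 4 of Fgfr3-WT lay above every cKO clone and clone 5 lay among them. Timp2 fell by 1.05 (SE 0.295, adjusted p = 0.0128) in P28, 1.40 (SE 0.321, adjusted p = 0.00337) in P4M and 1.23 (SE 0.252, adjusted p = 0.0014) with all cKO clones on the log2 scale, and no alternative removed a call. Given as a description with no test, the ratio of Timp2 to Mmp14 TPM was 49.3, 16.3, 34.1, 55.7 and 7.31 in Fgfr3-WT clones 1 to 5, and 1.71 to 2.76 in the 9 cKO clones. The lowest Fgfr3-WT ratio was that of clone 5, above every cKO ratio. This ratio combines the lower Timp2 and the higher Mmp14 already given and adds no separate evidence. The summed Timp TPM over the summed Mmp TPM was 4.08 to 39.6 in Fgfr3-WT and 1.36 to 3.07 in the cKO clones, again without overlap.

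**Figure D3:**
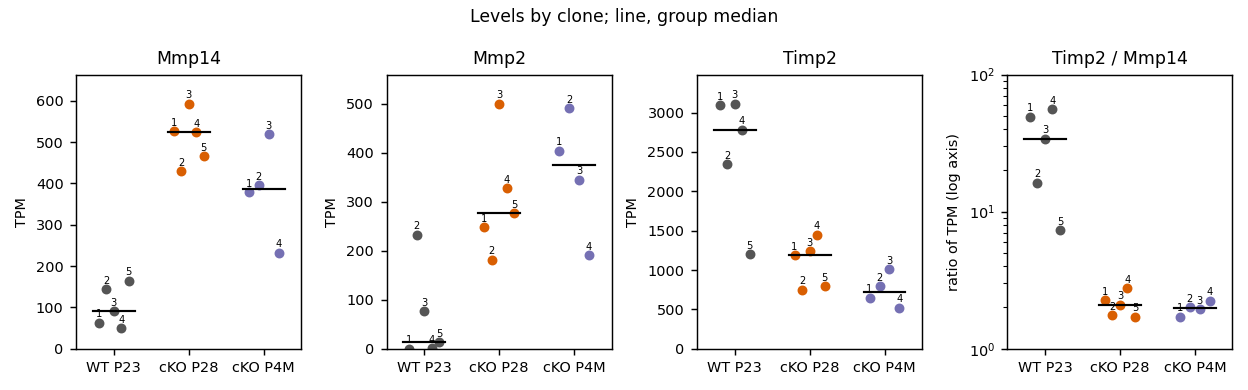
TPM of Mmp14, Mmp2 and Timp2 and the ratio of Timp2 to Mmp14 (log axis) in each clone, numbered within its group, with a line at the group median. Mmp14 and the ratio do not overlap between Fgfr3-WT and the cKO clones, where the ratio spans 1.71 to 2.76, while Mmp2 and Timp2 each have a Fgfr3-WT clone within the cKO range.

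The other inhibitors were not called in any comparison, except under the alternatives given with each. Timp3, which binds the matrix and inhibits several ADAMTS proteases, was at 1658, 1775, 8551, 5355 and 794 CPM in Fgfr3-WT clones 1 to 5. It was at 562, 797, 415, 2467 and 1657 CPM in P28 and at 2240, 2192, 4843 and 1976 CPM in P4M. The groups overlapped, and P28 clones 4 and 5, the clones with high osteoblast markers, held more Timp3 than P28 clones 1 to 3. On the log2 scale the difference was -1.62 (SE 0.649, adjusted p = 0.063) in P28 and -0.99 (SE 0.547, adjusted p = 0.15) with all cKO clones. Without P28 clones 4 and 5 both were called, at -2.65 (adjusted p = 0.022) and -1.50 (adjusted p = 0.0378), and the P28 difference was also called by DESeq2 (adjusted p = 0.0243) and without Fgfr3-WT clone 1, Fgfr3-WT clone 5 or P28 clone 4 (adjusted p = 0.0474, 0.0281 and 0.0325). Over all alternatives the adjusted p ranged from 0.022 to 0.203 and from 0.0378 to 0.568. Of the exonic bases of Timp3, 21.3% lie in exons of Syn3 on the other strand, and the library kit does not mark strand. Timp1, a broad inhibitor of secreted metalloproteases, differed with all cKO clones by -0.31 (SE 0.548, adjusted p = 0.664), with 11.1, 239, 125, 486 and 139 CPM in Fgfr3-WT. It was at 67.5 to 154 CPM in P28 and 147 to 326 CPM in P4M, and between these ages it was called higher in P4M only in a fit of the cKO groups alone (1.30, adjusted p = 0.0236, range 0.0236 to 0.389). Timp4 was low, at most 0.739 CPM, and differed by -1.93 (SE 0.898, adjusted p = 0.0911). Without Fgfr3-WT clone 1 Timp1 was called lower in P28 (-1.28, adjusted p = 0.0251, range 0.0251 to 0.697), and Timp4 was called lower with all cKO clones (-2.27, adjusted p = 0.0363, range 0.0332 to 0.33), as it was without Fgfr3-WT clone 3 (adjusted p = 0.0455) and without P28 clones 4 and 5 (adjusted p = 0.0332). In P4M, Timp4 was called lower by DESeq2 (adjusted p = 0.0494) and without Fgfr3-WT clone 1 or 3 (adjusted p = 0.0271 and 0.0341).

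Of the 7 hyalectanases, ADAMTS proteases that cut aggrecan, versican and their relatives, 3 of the 4 tested rose with all cKO clones (Adamts1, Adamts4 and Adamts5) and none fell, while Adamts8, Adamts15 and Adamts20 had too few counts to test. Adamts5, the major aggrecanase of mouse cartilage, was at 6.77, 10.1, 11.0, 4.95 and 8.74 CPM in Fgfr3-WT clones 1 to 5. P28 clones held 41.5, 27.5, 40.5, 67.0 and 89.5 CPM and P4M clones 44.2, 109, 31.2 and 52.2 CPM. No cKO clone overlapped the Fgfr3-WT range, and the log2 difference with all cKO clones was 2.75 (SE 0.377, adjusted p = 9.37e-05), the lowest adjusted p among the members. Adamts4, the second aggrecanase, was at 0.911, 1.19, 0.162, 0.54 and 5.26 CPM in Fgfr3-WT. It was at 11.7, 6.95, 13.3, 15.5 and 9.99 CPM in P28 and 23.0, 17.6, 22.3 and 10.9 CPM in P4M. The groups did not overlap and the log2 difference was 3.18 (SE 0.654, adjusted p = 0.00149), or 4.37 without Fgfr3-WT clone 5. Adamts1, which cuts aggrecan and versican, was at 15.2, 2.29, 10.1, 2.64 and 3.08 CPM in Fgfr3-WT. It was at 21.6, 17.5, 42.0, 125 and 216 CPM in P28 and 21.1, 21.8, 54.2 and 50.4 CPM in P4M. Every cKO clone lay above the Fgfr3-WT range, with the highest values in P28 clones 4 and 5, and the log2 difference was 3.06 (SE 0.746, adjusted p = 0.00436), or 2.24 (adjusted p = 0.00769) without P28 clones 4 and 5. In P4M the call of Adamts1 was lost without P4M clone 3 (adjusted p = 0.0509, range 0.00244 to 0.0509).

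Adamts9, a versican-cutting relative of Adamts1, was called in P28 and not in P4M. It was at 3.87, 27.7, 0.93, 2.39 and 22.7 CPM in Fgfr3-WT, and at 88.3, 29.0, 46.3, 172 and 142 CPM in P28. In P4M it was at 11.5, 29.7, 11.8 and 11.3 CPM. All P28 clones lay above the Fgfr3-WT range and the P4M clones overlapped both groups. On the log2 scale the difference was 3.05 (SE 0.844, adjusted p = 0.012) in P28 and 0.48 (SE 0.828, adjusted p = 0.665) in P4M. With all cKO clones it was 1.76 (adjusted p = 0.0662), called by DESeq2 (adjusted p = 0.0163) and without Fgfr3-WT clone 2 or 5 (adjusted p = 0.03 and 0.048, range 0.0163 to 0.178). The difference between the ages was -2.57 (SE 0.899, adjusted p = 0.0938) and did not pass, although DESeq2 (adjusted p = 0.013) and a fit with only the cKO groups (adjusted p = 0.0195) called it, with a range of 0.013 to 0.283. Without P28 clones 4 and 5 the P28 call was lost (2.20, adjusted p = 0.0879, range 0.000225 to 0.0879), and without Fgfr3-WT clone 2 the P28 difference was 3.67. Of the other hyalectanases, Adamts15 and Adamts20 had no count in any Fgfr3-WT clone. Set against a floor of 3 counts over the Fgfr3-WT group, their summed counts in the cKO clones were at least 20.4-fold and at least 9.96-fold higher, and at least 12.4-fold and 5.92-fold higher without the clone with most counts (P4M clone 2 and P28 clone 3). Adamts15 was highest in P4M, at 0.715, 1.86, 0.0395 and 1.16 CPM, against at most 0.0256 CPM in P28. Adamts20 was highest in P28, at 0.0512 to 0.834 CPM, against at most 0.0395 CPM in P4M.

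Adamts2, the main procollagen I amino-propeptidase, had a mean in P28 of 24.8 times, and in P4M of 109 times, the Fgfr3-WT mean. It was at 0.0325, 11.4, 1.94, 0 and 1.03 CPM in Fgfr3-WT clones 1 to 5. It reached 82.4, 49.6, 116, 61.7 and 47.0 CPM in P28 and 332, 479, 294 and 149 CPM in P4M. None of the 3 groups overlapped another. Adamts2 reached the filter level in 3 Fgfr3-WT clones and would not have passed the filter without the cKO clones. Adamts2 rose by 4.64 (SE 1.11, adjusted p = 0.00541) in P28, 6.78 (SE 1.24, adjusted p = 0.000833) in P4M and 5.71 (SE 1.13, adjusted p = 0.00117) with all cKO clones. Fgfr3-WT clone 2 held most of the Fgfr3-WT mean, and without it these values were 6.62, 8.76 and 7.69. The difference of 2.14 (SE 1.02) between the ages was not called (adjusted p = 0.204) except in a fit with only the cKO groups (adjusted p = 0.00807, range 0.00807 to 0.375). The related Adamts3 and Adamts14 were not called in any comparison, with log2 fold changes of -0.78 (SE 0.842) and 0.43 (SE 0.746) with all cKO clones. Adamts12, known to cut cartilage oligomeric matrix protein, was at 7.19, 0.841, 0.445, 0.967 and 2.77 CPM in Fgfr3-WT. It was at 18.3, 17.2, 18.1, 14.2 and 9.73 CPM in P28 and 20.2, 36.6, 6.95 and 12.3 CPM in P4M. Fgfr3-WT clone 1 lay above P4M clone 3 and otherwise the genotypes did not overlap, with a log2 difference of 2.81 (SE 0.649, adjusted p = 0.00316), or 3.76 without Fgfr3-WT clone 1. Adamts7, which shares that substrate, differed by 0.18 (SE 0.439, adjusted p = 0.763).

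**Figure D4:**
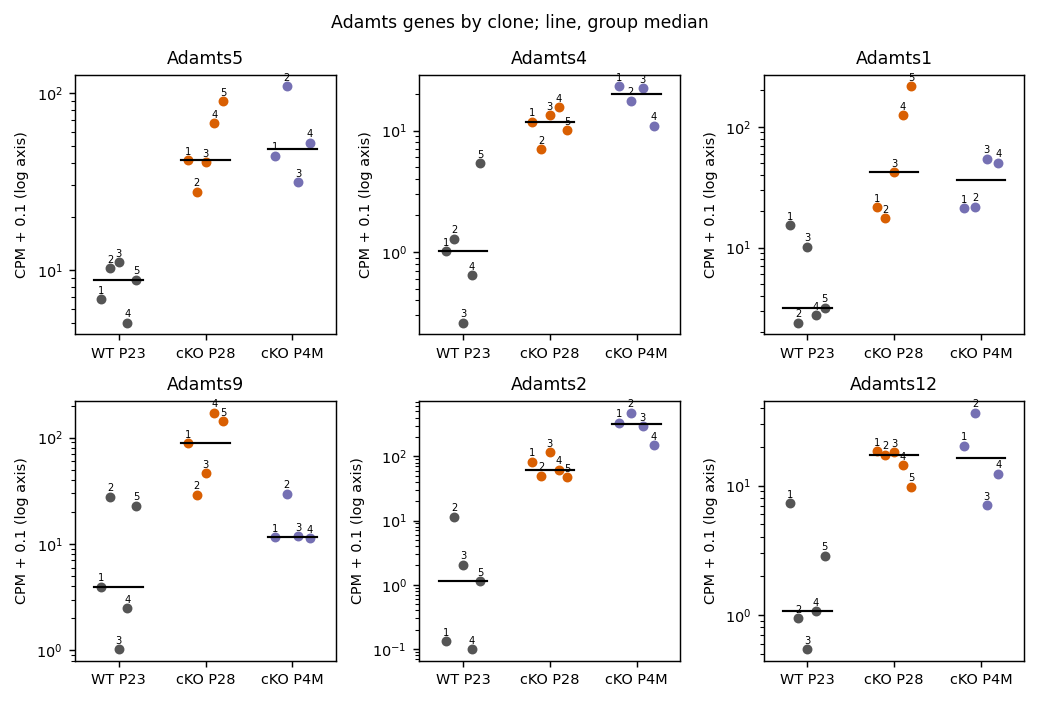
CPM + 0.1 on a log axis for 6 Adamts genes in each clone, numbered within its group, with a line at the group median. Adamts5, Adamts4, Adamts1 and Adamts2 do not overlap between Fgfr3-WT and the cKO clones, and Adamts9 is high in P28 but not in P4M, where its log2 fold change was 0.48. The share of all genes tested without overlap was not counted.

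Among the remaining Adamts genes, Adamts6 rose (1.60, SE 0.444, adjusted p = 0.00946). Adamts17 was called higher as well (2.84, SE 0.621, adjusted p = 0.00216). It passed the filter through the cKO clones alone, with 20 counts over the Fgfr3-WT clones, and could hardly be called other than higher. Adamts16 had 2 counts over the Fgfr3-WT clones and was at 0.538, 0.0478, 0.636, 1.53 and 0.512 CPM in P28 and 0.3, 0.159, 0.237 and 0.113 CPM in P4M. Every cKO clone lay above the Fgfr3-WT clones, the highest of which held 0.0395 CPM. The ratio of summed counts was 32.8 (exact 95% interval of counting error 8.94 to 272), or 22.5 without P28 clone 4. Adamts18 had 1 count over the Fgfr3-WT clones and reached 0.0645, 1.03, 0.397, 7.61 and 2.41 CPM in P28 and 2.56, 2.37, 0.0592 and 0.92 CPM in P4M. All 9 cKO clones exceeded the Fgfr3-WT clones, but they ranged from 0.0592 to 7.61 CPM, and the ratio of summed counts was 273 (48.9 to 10804), or 164 (29.4 to 6509) without P28 clone 4. These counts are low, and the fitted fold changes of such genes depend on the prior count. Adamts10, which is linked to fibrillin microfibrils, was at 63.1, 60.4, 43.7, 69.9 and 77.2 CPM in Fgfr3-WT and did not differ by the test with all cKO clones (-0.05, SE 0.174, adjusted p = 0.828).

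Of the Mmp genes, Mmp3 (stromelysin 1) fell most. It was at 98.4, 128, 5.34, 3.55 and 26.1 CPM in Fgfr3-WT clones 1 to 5. It was at 8.32, 3.13, 6.97, 7.83 and 0.768 CPM in P28 and 0.115, 0.0682, 3.06 and 0.808 CPM in P4M. Every P4M clone lay below the Fgfr3-WT range, while 3 P28 clones lay within it and 2 below. Mmp3 fell by 4.48 (SE 0.958, adjusted p = 0.00193) with all cKO clones and by 5.68 (SE 1.41, adjusted p = 0.00561) in P4M on the log2 scale. Without Fgfr3-WT clone 2 these differences were -3.83 and -5.03, and without P4M clone 3 they were -5.26 and -7.25, all called. In P28 it fell by 3.27 (SE 1.13, adjusted p = 0.0351), a call lost without a filter and on leaving out Fgfr3-WT clone 1 or 2, any single P28 clone, or P28 clones 4 and 5 together (adjusted p = 0.114, range 0.00278 to 0.114). Mmp13, the main collagenase of bone and hypertrophic cartilage in mice and the other testable gene of the chromosome 9 row, was at 2.70, 143, 5.94, 5.20 and 259 CPM in Fgfr3-WT. It was at 8.71, 12.2, 6.16, 94.3 and 149 CPM in P28 and 50.9, 16.9, 70.0 and 57.2 CPM in P4M. The groups overlapped, and high values stood in Fgfr3-WT clones 2 and 5 and in P28 clones 4 and 5. Mmp13 was not called (-0.69, SE 1.04, adjusted p = 0.605), and the sign turned without Fgfr3-WT clone 5 (0.39, adjusted p = 0.792, range 0.122 to 0.795). Both genes hold the AP-1 letters shown above. The other 8 genes of the row had too few counts to test, from none for Mmp7 to 73 over all clones for Mmp10.

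**Figure D5:**
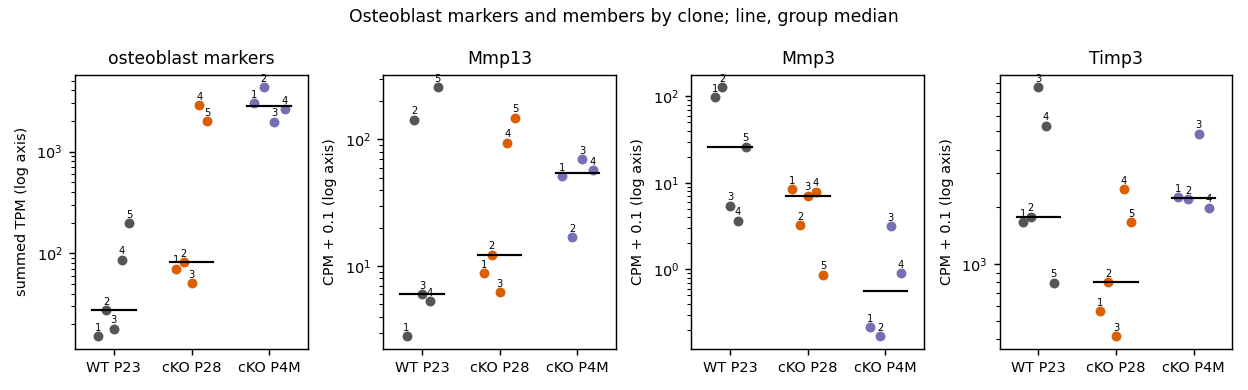
Summed TPM of the 5 osteoblast markers, and CPM + 0.1 of Mmp13, Mmp3 and Timp3, in each clone on log axes, numbered within its group, with a line at the group median. In P28, clones 4 and 5 are the highest for the markers, Mmp13 and Timp3, while Mmp3 is lowest in P28 clone 5 at 0.768 CPM.

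Within P28, clones 4 and 5 had osteoblast marker sums of 2850 and 1995 TPM, against 51.0 to 81.6 TPM in clones 1 to 3. Both lay above clones 1 to 3 for Mmp13, Adamts1, Adamts5, Adamts9, Adamts14, Adamts18, Timp1, Timp3 and Timp4. They both lay below them for Mmp9, Mmp11, Mmp16, Mmp17, Mmp28, Adamts6 and Adamts12. How many of all genes tested split in this way was not counted, so the split is not a result about the members. P4M clones had osteoblast marker sums of 1976 to 4320 TPM. The part of the osteoblast markers in the members' values was not tested. Without P28 clones 4 and 5, 14 members rose and 6 fell with all cKO clones (20.3% and 24.1% over all genes in that fit), and 12 rose and 3 fell in P28 (13.8% and 14.7%). The members' median SD between clones was higher than that over all genes tested, which include them and were not matched for level. The median SD of log2 CPM was 1.18 over the 30 tested members and 0.515 over all genes tested in Fgfr3-WT, 0.829 and 0.326 in P28, and 0.642 and 0.307 in P4M.

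The other Mmp genes that fell with all cKO clones were Mmp15, Mmp19 and Mmp28. Mmp15 fell by 2.38 on the log2 scale (adjusted p = 0.0064). In P4M it fell by 4.06 (adjusted p = 0.00264), while in P28 it was not called (-0.70, adjusted p = 0.462). Mmp19, a secreted metalloprotease, was at 39.0, 110, 155, 51.4 and 85.0 CPM in Fgfr3-WT. It was at 26.4, 8.89, 20.5, 52.7 and 20.3 CPM in P28 and 23.7, 15.5, 60.5 and 21.6 CPM in P4M. P28 clone 4 and P4M clone 3 lay within the Fgfr3-WT range and the other 7 cKO clones below it, and Mmp19 fell by 1.66 (SE 0.429, adjusted p = 0.00628) on the log2 scale. Of its exonic bases, 28.3% lie in exons of 2 genes on the other strand. Mmp28 (epilysin) fell by 0.78 (SE 0.281, adjusted p = 0.0331), from 24.7 to 64.0 CPM in Fgfr3-WT to 10.3 to 22.1 CPM in P28 and 15.0 to 39.9 CPM in P4M, and lost that call without a filter, without any one of Fgfr3-WT clones 1 and 3 and P4M clones 1, 3 and 4, and without P28 clones 4 and 5 (adjusted p from 0.0185 to 0.133 over the alternatives). Mmp11 (stromelysin 3, 1.69, SE 0.58, adjusted p = 0.0274) and Mmp23 (3.14, SE 0.779, adjusted p = 0.00487) rose. The call of Mmp11 was lost without Fgfr3-WT clone 1, Fgfr3-WT clone 2 or P4M clone 3, with adjusted p values of 0.00371 to 0.0599 over all alternatives. Mmp16 and Mmp17, both membrane-type, were not called, at -0.72 (SE 0.514) and 1.16 (SE 0.632).

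Between P4M and P28, no member rose and 2 fell, Mmp15 and Adamts10, with 5 of the 30 tested at an unadjusted p under 0.05. Over all genes tested, 3.34% rose and 3.88% fell. With DESeq2, none rose and 3 fell, the third being Adamts9, while 6.62% of all genes rose and 8.47% fell. Mmp15, a membrane-type metalloprotease, was at 4.92, 8.79, 4.43, 7.27 and 1.77 CPM in P28 and at 0.346, 0.637, 0.592 and 0.526 CPM in P4M. All P4M clones lay below all P28 clones, and below the Fgfr3-WT clones, which held 0.879, 16.0, 3.19, 2.30 and 21.8 CPM. Mmp15 fell by 3.36 (SE 0.86, adjusted p = 0.0338) on the log2 scale, a call lost on leaving out any P4M clone or any of P28 clones 1 to 4 (adjusted p from 0.000212 to 0.0992 over the alternatives). Adamts10 was at 89.6, 49.5, 77.7, 97.6 and 79.3 CPM in P28 and 47.6, 55.3, 34.8 and 49.5 CPM in P4M. P28 clone 2 lay within the P4M range and the other P28 clones above it. Adamts10 fell by 0.75 (SE 0.212, adjusted p = 0.0478), a call lost on leaving out Fgfr3-WT clone 2 or 4, P28 clone 1, 3, 4 or 5, any P4M clone, or P28 clones 4 and 5 together (adjusted p = 0.14, range 0.0144 to 0.14). Age and passage cannot be told apart for these clones, since the P4M clones were used at passage 6 to 8.

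Other genes of pericellular proteolysis were taken from a list of 32, of which 31 were tested. With all cKO clones, 9 rose and 8 fell, shares near the 23.1% and 25.7% over all genes tested. Bmp1, the procollagen C-proteinase, rose by 2.29 on the log2 scale (SE 0.332, adjusted p = 0.000139), from a mean of 78.9 to 390 CPM, with every cKO clone above every Fgfr3-WT clone. Plau, the urokinase that activates plasminogen, rose by 2.88 (SE 0.569, adjusted p = 0.00112), from 3.42 to 26.5 CPM. Adamtsl3 and Papln, which resemble ADAMTS proteases but lack the protease domain, rose by 2.70 (adjusted p = 0.00307) and 4.03 (adjusted p = 0.00426), with Papln under 1 TPM in every clone. Bsg, an inducer of metalloproteases, fell by 1.65 (SE 0.256, adjusted p = 0.000206), from 2744 to 875 CPM. The lysosomal protease Ctsl fell by 1.57 (adjusted p = 0.000212), the membrane protease Adam8 by 2.87 (adjusted p = 0.000441) and the serine protease inhibitor Serpine2 by 3.93 (adjusted p = 0.000597). Of 10 matrix substrates, all tested, 2 rose and 5 fell, to be read against the same shares. Col1a1 (type I collagen) rose by 6.47 (SE 1.58, adjusted p = 0.00451), with every cKO clone above the Fgfr3-WT range, and Vcan (versican) by 3.20 (SE 0.878, adjusted p = 0.0087). Acan (aggrecan) fell by 6.69 (SE 1.18, adjusted p = 0.000526), Col2a1 (type II collagen) by 5.68 (SE 0.974, adjusted p = 0.000425), Col10a1 (type X collagen) by 3.55 (adjusted p = 0.00202) and Spp1 (osteopontin) by 1.84 (adjusted p = 0.000227).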

How the data were processed

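Bulk RNA-seq of 14 cultured clones was analysed from tables that the authors deposited. By the study's methods, SMART-Seq v4 libraries were sequenced as single-end reads, aligned to mm10 with TopHat and Bowtie2 and counted with HTSeq. The deposited counts are raw whole numbers for 30503 genes, 4 rows of reporter constructs included (0.411% of counts). The deposited expected counts hold the same genes and more, and gave the total of Mmp7. TPM values were normalized by the authors for gene length and library total. Other deposited tables were not used. Strand handling is not given in the sources used here.

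Counts were tested with edgeR 4.0.16 in R 4.3.3. Genes passing filterByExpr were kept, libraries were scaled by TMM, and a quasi-likelihood model of the 3 groups was fitted robustly to all 14 clones. "All cKO" is the mean of both cKO groups. P values were adjusted by Benjamini-Hochberg over 17358 genes, with calls at an FDR of 0.05. The steps were tested on simulated data. Alternatives were DESeq2 1.42.0, RLE or no scaling, other filters, other sample sets and leaving out each clone. Gene positions are from GENCODE M21 (mm10). Where no Fgfr3-WT clone held a count, the floor was 3 counts over that group, and such limits and intervals cover counting error only. Replicate numbers run in label order and pair nothing. No 2 clones of a group agreed within sampling noise.

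Named members were the 4 Timp genes, 8 members known in bone and cartilage, the called members with the lowest p (up to 6 each way with all cKO clones, 4 each way between ages) and the most abundant member of each class. Other members were named after their values were seen. The members and lists were chosen with earlier results of these data known.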

Additional observations from a re-analysis of the deposited data

Results flagged for a closer look

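Each clone of the named members was compared with the others of its group by Dixon's test, over 60 groups, of which chance marks about 1 in 20. It made 6 marks, of which Fgfr3-WT clone 2 held more than 1. Fgfr3-WT clone 2 was high for Adamts2 (11.4 CPM, the others 0 to 1.94) and held the only count of Adamts18 in that group (0.0382 CPM), a mark that 1 count among zeros fixes and that shows no outlying clone. Fgfr3-WT clone 5 was high for Adamts4, at 5.26 CPM against 0.162 to 1.19. For Mmp9, P28 clone 3 held 7.17 CPM against 0.154 to 0.623, and P4M clone 2 held 1.80 CPM against 0.158 to 0.357. P4M clone 3 held 4843 CPM of Timp3 against 1976 to 2240.

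By the test of P4M against P28, the cKO ages differed for Mmp15 (log2 difference -3.36, adjusted p = 0.0338) and Adamts10 (-0.75, adjusted p = 0.0478). Of the 14 fits without a single clone, 8 lost the call of Mmp15 and 10 that of Adamts10. Adamts10 was not called against Fgfr3-WT in P28 (adjusted p = 0.208) or P4M (adjusted p = 0.113).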

How the results depend on the processing

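Counts of members called against Fgfr3-WT stayed within 1.5 times those reported, except where each clone had to hold 10 or more counts of a gene. That filter tests fewer genes and gave 7 members higher in each of P28, P4M and all cKO clones against Fgfr3-WT. Of the 12559 genes it tests, 2514, 2900 and 3014 were called higher in these comparisons. Between P4M and P28, the members called higher were 1 without a filter and 2 in a fit of only the cKO groups (Adamts2 and Timp1). Another 1 was called higher without P28 clones 4 and 5, and 0 to 1 over the fits without a single clone. Over all genes, these fits called 506 of 29900, 1459 of 16672, 700 of 17742 and 230 to 1038 higher. The members called lower were 1 without a filter, 1 with a minimum log2 fold change of 1, and 0 to 2 without a single clone. Over all genes, 449 of 29900 were called lower without a filter and 215 to 1094 without a single clone. The share over all genes was not counted for the minimum fold change. The fit without P28 clones 4 and 5 was chosen after seeing the data.

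The log2 differences of some members that were not called in the comparison concerned changed sign. Without scaling and without a filter, Adamts10 with all cKO clones was 0.0015 and 0.013. Without P28 clones 4 and 5, P4M against P28 was 0.48 for Adamts1, 1.60 for Adamts18, -0.21 for Adamts6 and 2.47 for Mmp13. Over the fits without a single clone, all cKO against Fgfr3-WT ranged from -0.16 to 0.032 for Adamts10, -1.12 to 0.39 for Mmp13 and -0.62 to 0.32 for Timp1. Likewise P28 against Fgfr3-WT ranged from -1.47 to 0.46 for Mmp13, and P4M against Fgfr3-WT from -1.09 to 0.32 for Mmp13 and -0.76 to 0.23 for Timp3. P4M against P28 ranged from -0.24 to 0.57 for Adamts12, -1.03 to 0.61 for Adamts18, -0.32 to 0.44 for Adamts5, -0.016 to 0.38 for Adamts6, -0.43 to 0.69 for Mmp13, -0.34 to 0.70 for Mmp19 and -2.75 to 0.76 for Mmp9. The cause was not tested. A tally was made for members named by the rule or called in any comparison, where the alternative gave an adjusted p. Of these values, 1918 kept sign and call, 59 lost a call, 23 gained one and 25 changed sign.

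In P28 against Fgfr3-WT, the call of Mmp23 was lost without P28 clone 5 (adjusted p = 0.052) and without P28 clones 4 and 5 (0.078), that of Mmp28 without Fgfr3-WT clone 3 (0.0552) and without P28 clones 4 and 5 (0.103), and that of Adamts6 without Fgfr3-WT clone 3 or 4 or P28 clone 1 or 3 (0.0517 to 0.0582). In P4M, that of Mmp19 was lost without a filter (0.0723) and without Fgfr3-WT clone 2 or 3 or P4M clone 1, 2 or 4 (0.0642 to 0.0966). No paired analysis was possible because the labels carry no replicate numbers. Depth limits Mmp9, Adamts16, Adamts17 and Adamts18, with at most 20 counts over all Fgfr3-WT clones, and 16 members held too few counts to test. Each library series holds 1 genotype, so no fit with the series as a term was possible.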
